A study of Arabidopsis thaliana with 4 samples.

Results

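The 444 regions described here are binding peaks of the Arabidopsis thaliana transcription factor MYB67 that lay on the chromosome arms and to which the authors assigned no gene. They were chosen by 2 criteria, an empty gene entry in the authors' deposited gene table and a peak summit outside a window around each centromere. The windows ran from 11.5 to 17.7 Mb on chromosome 1, 1.1 to 7.2 Mb on chromosome 2, 10.3 to 17.3 Mb on chromosome 3, 1.5 to 6.3 Mb on chromosome 4 and 9.0 to 16 Mb on chromosome 5. The whole list held 5390 peaks, 4310 of them on the arms, so the regions made up 10.3% of arm peaks. The other 3866 arm peaks had an assigned gene and served for comparison. No measured strength entered the choice. Inside the windows 463 of 1028 peaks had no assigned gene.

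The peaks came from DNA affinity purification sequencing (DAP-seq), in which a tagged factor made in a cell-free extract captures fragments of naked genomic DNA. There were 2 libraries with MYB67, produced as a fusion to the Halo tag in wheat germ extract, and 2 empty vector libraries with the Halo tag alone, all on genomic DNA of Col-0 plants. The tissue label reads root, but the protocol takes the DNA from leaf. All deposited values describe 1 joint peak set, so depth per library is unknown, no value has a replicate error, and binding to DNA packed in chromatin was not measured.

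MYB67 belongs to the R2R3 MYB factors, which bind short DNA sites rich in A and C through a pair of MYB repeats. Related members control phenylpropanoids, lignin, suberin and cuticle, and MYB67 was studied for its part in the phellem, the suberised outer tissue of the thickened root. Regulatory DNA between genes can act on the gene next to it or on one farther away, so the genes on either side of a peak are named here as neighbours and not as targets.

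The sequence searched for in the peaks is shown first, because the site counts below rest on it. It is the most frequent base at each of the 10 positions of the authors' deposited motif matrix, read from 5′ to 3′, with the 6 positions that carry more than 1 bit of information in capitals.
MYB67 motif: tccACCTAcC
The string is a summary, since other bases are common at the positions in lower case and at some in capitals. At position 7, a capital T, A made up 30.4%, and at position 10, a capital C, T made up 19.2%. A site here means an entry in the authors' list of matches made with the motif scanner FIMO, which reaches a q of 0.05. The sequences of the peaks themselves were not used here, because no genome of their build was at hand.

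The summits of all 444 regions lay between protein-coding genes, and the full width of the regions was not checked. In the RefSeq table of the assembly TAIR10.1, 0 of 444 summits stood within a protein-coding gene. The regions were chosen for having no assigned gene, so this count may follow from the choice and is no result about binding. Among gene-assigned arm peaks 2127 of 3866 summits stood within one and 1739 between genes. The table's gene order fitted the authors' assignments. The assigned gene lay under the summit for 2052 gene-assigned peaks, was the next gene on either side for 1803, and was neither for 11. All 3866 assigned genes were protein-coding. The rule of assignment was not given in the sources used here, and the table's assembly differs by name from the peaks' build, TAIR10. Distances to genes, promoters and exons were therefore not measured.

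In strength these regions were not separable from the gene-assigned peaks taken as a whole. Their fold enrichment, the authors' ratio of peak signal to modelled background, had a median of 4.42 (quartiles 3.74 and 5.57, range 2.40 to 16.6). Gene-assigned arm peaks had a median of 4.38 (quartiles 3.74 and 5.55, range 1.87 to 21.6). A fold above the median of all arm peaks was found in 228 of 444 regions (51.4%) and in 1904 of 3866 gene-assigned peaks (49.2%). The difference was 2.10 percentage points (95% interval -2.80 to 6.98, Fisher's exact test, two-sided, adjusted p = 0.452 over 7 tests). The plot of cumulative fold shows both groups over their whole range.

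**Figure D1:**
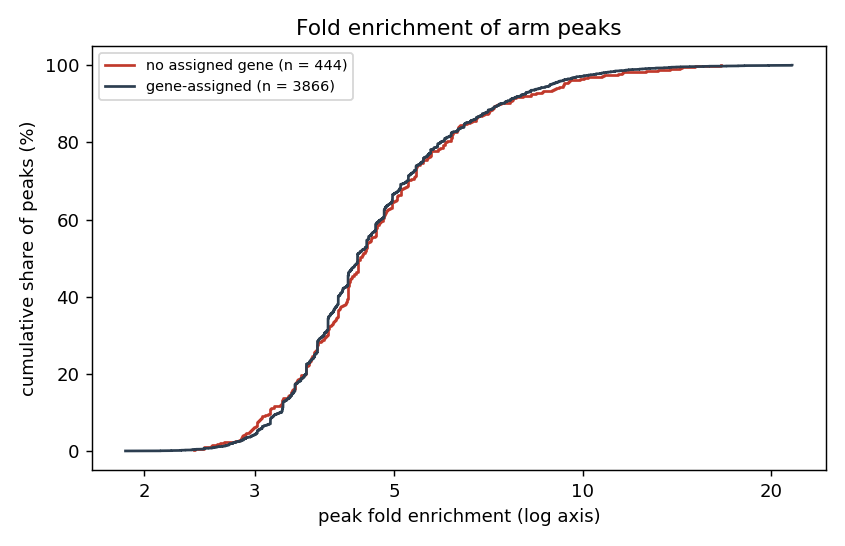
Cumulative share of peaks (%) by fold enrichment (log axis) for 444 arm peaks with no assigned gene and 3866 gene-assigned arm peaks. The medians are 4.42 and 4.38, and the highest folds 16.6 and 21.6.

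The other measures of peak size gave like values. The median −log10 q was 8.93 in regions with no gene and 8.21 in gene-assigned peaks, and 52.7% and 48.7% lay above the arm median (Fisher's exact test, two-sided, adjusted p = 0.168). Median widths were 260 and 256 bp, and 51.4% and 49.4% were above the arm median of 257 bp (Fisher's exact test, two-sided, adjusted p = 0.452). These intervals still allow differences of several percentage points, from -0.911 to 8.86 for −log10 q and from -2.93 to 6.85 for width. Peaks are not replicates, and with no value per library a spread between libraries could not be measured.

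The regions held close matches to the motif less often than gene-assigned peaks. A site at a q of up to 0.01 was present in 178 of 444 regions (40.1%, 95% interval 35.6 to 44.7%) and in 1917 of 3866 gene-assigned peaks (49.6%, 48.0 to 51.2%), with 48.6% over all arm peaks. The difference of -9.50 percentage points (95% interval -14.2 to -4.61) passed the threshold (odds ratio 0.680, Fisher's exact test, two-sided, adjusted p = 0.00116). At the deposited q of up to 0.05, 423 regions (95.3%) and 3742 gene-assigned peaks (96.8%) held a site, against 96.6% of all arm peaks (adjusted p = 0.167, Fisher's exact test). At least 2 sites were listed for 298 regions (67.1%) and 2748 gene-assigned peaks (71.1%), against 70.7% of all arm peaks (adjusted p = 0.167, Fisher's exact test). Of the regions 21 held no site at all. When −log10 q had to reach 10, the difference in close matches was -5.89 points and no longer passed (adjusted p = 0.417, Fisher's exact test). The motif was found in these same peaks by the authors, so none of the shares is an independent test of it.

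The shortfall in close matches was measured against peaks within genes, and was not separable from 0 against peaks between genes. This split was added after the data were seen. Of the gene-assigned peaks with a summit within a gene 1178 of 2127 held a site at a q of up to 0.01 (55.4%, 95% interval 53.3 to 57.5%). The difference of the regions from these was -15.3 percentage points (95% interval -20.2 to -10.2, Fisher's exact test, two-sided, adjusted p = 3.98e-08). Of the gene-assigned peaks with a summit between genes 739 of 1739 held one (42.5%, 40.2 to 44.8%). Against these the difference was -2.41 points (95% interval -7.44 to 2.76, adjusted p = 0.590, Fisher's exact test). Size differed in the same split. Against peaks within genes more of the regions lay above the arm median of −log10 q (52.7% and 45.4%, difference 7.29 points, 95% interval 2.18 to 12.3, adjusted p = 0.0194 by Fisher's exact test). The same held for width (51.4% and 45.2%, difference 6.12 points, 95% interval 1.02 to 11.2, adjusted p = 0.0372 by Fisher's exact test), and for fold the test did not pass (51.4% and 46.9%, adjusted p = 0.0945, Fisher's exact test). Against peaks between genes none of the 7 tests passed. The plot of site shares shows the regions beside both sets.

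**Figure D2:**
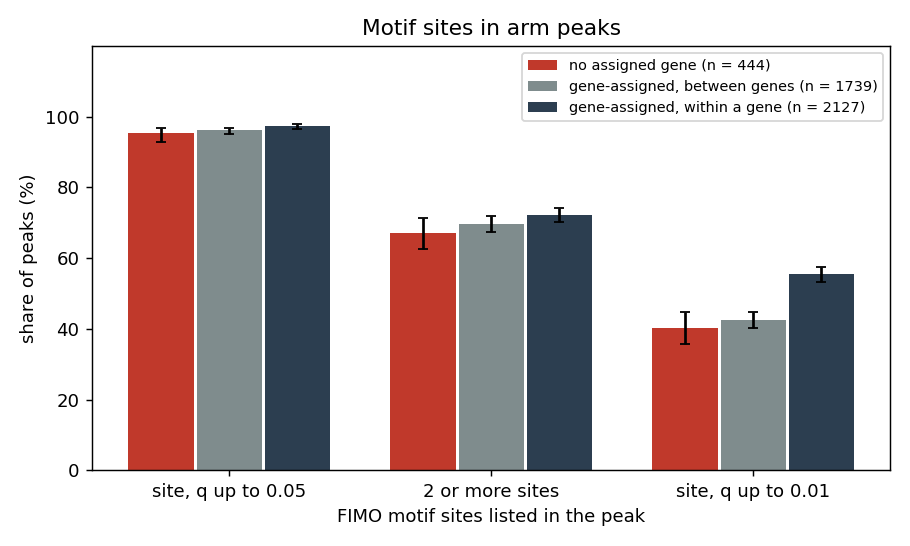
Share of peaks (%) with a FIMO site at q up to 0.05, with 2 or more such sites, and with a site at q up to 0.01, for 444 arm peaks with no assigned gene, 1739 gene-assigned arm peaks between genes and 2127 within a gene. Bars give shares and whiskers 95% Wilson intervals; at q up to 0.01 the shares are 40.1%, 42.5% and 55.4%.

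Within the regions, close matches went with higher fold. The 178 regions with a site at a q of up to 0.01 had a median fold of 4.93 (quartiles 4.08 and 6.28). The 245 with weaker sites alone had 4.23, and the 21 with none 3.99. The same 3 classes of gene-assigned peaks had medians of 4.68, 4.23 and 3.87. Width moved with the class as well, at 278, 249 and 233 bp in the regions, and its part in these values was not tested. With all arm peaks cut into 4 equal bins of fold, from the lowest to the highest, 22.8%, 37.3%, 46.6% and 53.6% of the regions held a close match. The shares of gene-assigned peaks in the same bins were 38.5%, 45.2%, 52.9% and 62.0%. These hold peaks within and between genes together, and the bins were not split by that position.

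Fold also differed by the number of listed sites. Regions with 1 site had a median of 4.23 (125 regions), those with 2 sites 4.33 (158), with 3 sites 4.83 (84) and with 4 sites 6.67 (33 regions). The 23 regions with 5 or more had 5.65, with quartiles of 4.0 and 8.98. The medians of gene-assigned peaks were 4.15 at 1 site, 5.11 at 4 sites and 6.12 at 5 or more. The median width of the regions was 244 bp at 1 site and 343 bp at 5 or more. In the plot of fold against the site count the quartile ranges of both groups overlap at every count.

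**Figure D3:**
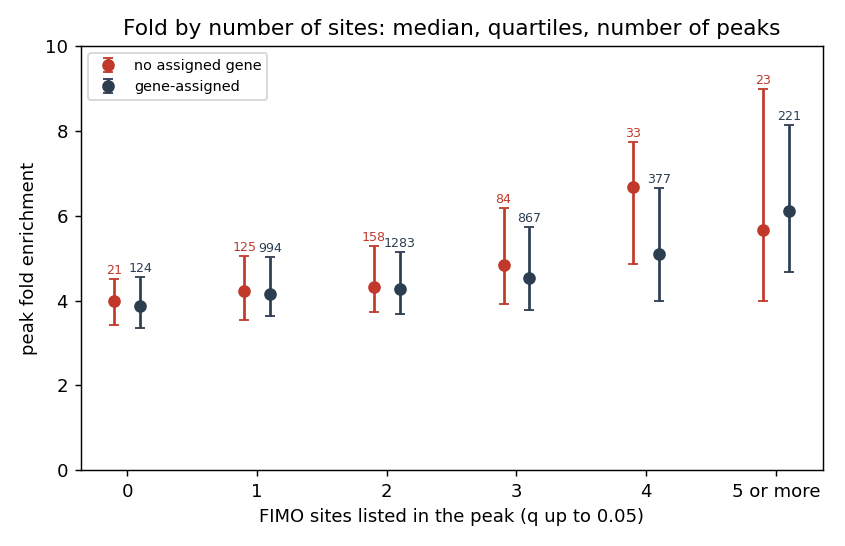
Peak fold enrichment by number of FIMO sites listed at q up to 0.05, for arm peaks with no assigned gene and gene-assigned arm peaks. Points are medians, bars quartiles and small numbers the count of peaks; with 4 sites the medians are 6.67 and 5.11.

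The share of arm peaks with no gene had its lowest value on chromosome 3, at 53 of 757 peaks (7.0%, 95% interval 5.39 to 9.04%). Chromosome 2 had 83 of 690 (12%, 9.81 to 14.7%), chromosome 4 82 of 700 (11.7%), chromosome 1 126 of 1155 (10.9%) and chromosome 5 100 of 1008 (9.92%). Within 1 Mb of a window border the share was 15.8% (77 of 487, 95% interval 12.8 to 19.3%), and beyond 8 Mb it was 8.57% (98 of 1144, 7.08 to 10.3%). The fold of the regions had no such order, with medians of 4.61 within 1 Mb and 4.46 beyond 8 Mb. At the borders themselves, 44 of 261 peaks in the 0.5 Mb just outside the windows had no gene, with a median fold of 5.12. In the 0.5 Mb just inside, 54 of 227 had none, with a median fold of 4.83. No test was run on these shares.

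**Figure D4:**
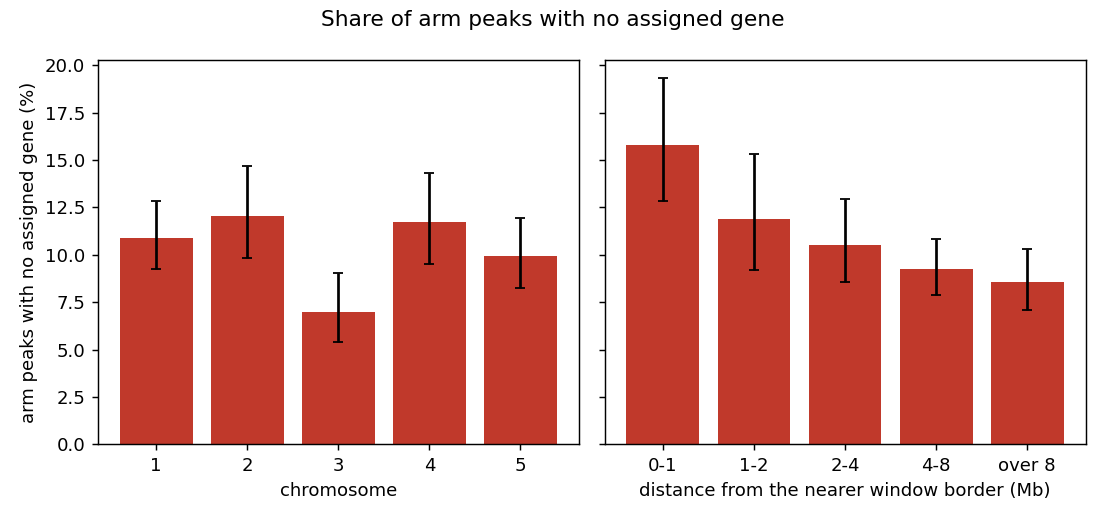
Share of arm peaks with no assigned gene (%) by chromosome (left) and by distance of the summit from the nearer window border in Mb (right). Bars give shares and whiskers 95% Wilson intervals; the lowest chromosome is 3 at 7.0%, and the share runs from 15.8% within 1 Mb to 8.57% beyond 8 Mb.

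Most regions stood alone in their gap, and 114 of 444 (25.7%) shared it with another. The regions filled 383 gaps between neighbouring protein-coding genes, of which 330 held 1 region, 45 held 2 and 8 held 3. In 70 of these gaps there was also a peak that the authors did assign to a gene. Another summit of the list stood within 1 kb of 55 regions (12.4%) and of 347 gene-assigned peaks (8.98%), against 9.33% of all arm peaks. This difference of 3.41 points did not pass the threshold (95% interval 0.509 to 6.91, Fisher's exact test, two-sided, adjusted p = 0.0864). Within 2 kb, a distance set as an alternative, the shares were 25% and 18.3% (adjusted p = 0.00303, Fisher's exact test). Nearness is mutual, so peaks close to one another are counted together, and the tests treat them as independent. Against gene-assigned peaks between genes the 1 kb difference was 2.78 points (adjusted p = 0.590, Fisher's exact test), and 2 kb was not run.

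The strongest region lay between KRP2, which encodes an inhibitor of cyclin-dependent kinases, and AT3G50640 (chromosome 3, 18801886 to 18802324). Its fold was 16.6, the 10th highest of all arm peaks, with a −log10 q of 151, the highest of the arms, and 3 sites, 2 of them at a q of up to 0.01. No peak was assigned to either neighbour, and a further region on the other side of KRP2 had a fold of 3.50. The second, between ORG1 and the glutamate synthase gene GLT1 (chromosome 5, 21697895 to 21698313), had a fold of 15.1 and 5 sites, 3 of them close matches. A further region in the same gap had a fold of 8.26, and ORG1 carried an assigned peak of 5.92. The region of 15.1 thus had the highest fold of these 3 peaks.

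Of the 10 regions with the highest fold 5 had no assigned peak at either neighbour. The peak between AT5G44567 and AT5G44568 (chromosome 5, 17957698 to 17958037) had 14.4, with an assigned peak of 3.96 at AT5G44568. The peak between HAT22, a homeodomain leucine zipper gene, and the xyloglucan-modifying enzyme gene XTH7 (chromosome 4, 17773056 to 17773478) had 14.3, and neither gene had an assigned peak. Between AT4G15390 and the cytochrome P450 gene CYP702A5 (chromosome 4, 8797529 to 8797921) the fold was 13.8, with a second region of 6.92 whose summit stood 717 bp away and an assigned peak of 2.90 at CYP702A5. UMAMIT31 and UMAMIT30, members of a family of amino acid and metabolite transporters, flanked a region of 13.2 (chromosome 4, 599754 to 600096) with no site at a q of up to 0.01. AT3G25790 and the phosphatase subunit gene PP2AA2 flanked a region of 13.2 as well (chromosome 3, 9418663 to 9419020), and AT3G25790 had an assigned peak of 5.72. The last 3 of the 10 highest were 12.6 next to the trehalose phosphate phosphatase gene TPPE, 11.6 next to the DNA repair gene ERCC1 and AT3G05220, which had an assigned peak of 4.13, and 11.5 next to AT1G62410. None of these 3 held a close match, although each had 3 listed sites. At the other end the 3 lowest folds were 2.49 next to AT5G48560, 2.41 next to OZF2 and 2.40 next to GLK2, a regulator of chloroplast development.

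The regions with the most sites were below the 10 highest in fold. The 10 sites between AT3G47200 and AT3G47210 (chromosome 3, 17381098 to 17381745) were the most in any region, at a fold of 9.32. A region with 8 sites between AT3G24360 and AT3G24420 had 6.19. Of the 4 regions with 7 sites, that between the auxin biosynthesis gene YUC5 and the myosin gene MYA2 (chromosome 5, 17652697 to 17653116) had 10.7. The region between MYB111 and TBL4 had 5.65, and that over the pseudogene AT2G24930 had 5.57. The last, between MSRB9 and MSRB2 (chromosome 4, 11598282 to 11598667), had the lowest fold of the 4, 4.70, and 2 close matches, the most of the 4. The plot of fold against site number shows the spread of all 444 regions.

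**Figure D5:**
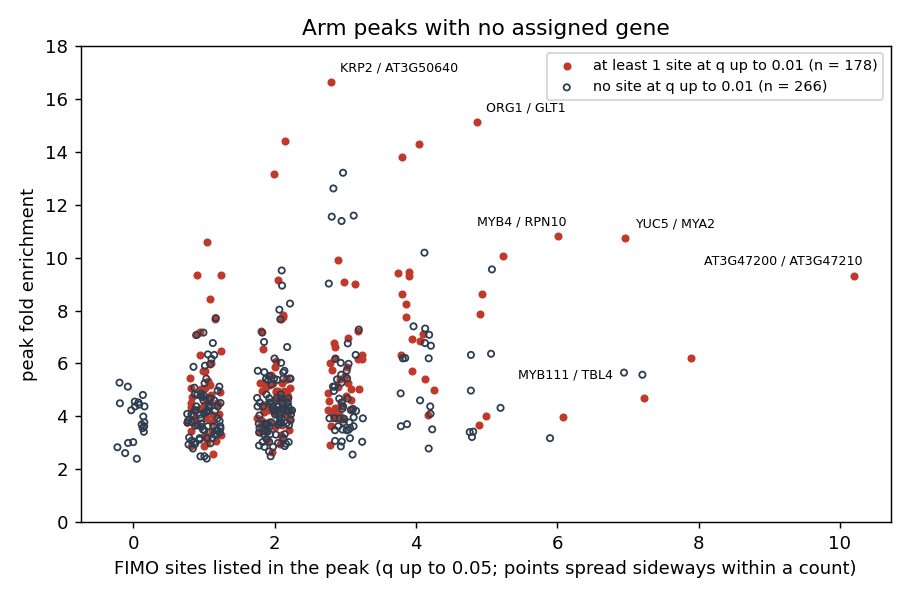
Fold enrichment of the 444 arm peaks with no assigned gene against the number of FIMO sites listed (q up to 0.05). Filled points are the 178 regions with a site at q up to 0.01 and open points the 266 without; 6 regions are named by the genes on either side, and the highest, next to KRP2, has a fold of 16.6 with 3 sites.

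In 8 gaps there were 3 regions, and in 7 of these all 3 lay within 5 kb of one another. AT1G19835 and AT1G19840 flanked folds of 10.2, 4.23 and 4.96, with an assigned peak of 5.25 at AT1G19835. TCX2 and AT4G14780 flanked 5.42, 3.11 and 5.25, below the 6.92 of the peak assigned to TCX2. ABCG21, a transporter gene, and AT3G25640 flanked 4.38, 5.87 and 3.78, and both had assigned peaks, of 5.08 and 3.63. AT1G76870 and AT1G76880 flanked 4.83, 5.42 and 2.49, with 4.82 at AT1G76880. In the other groups with no assigned peak on either side, MYB112 and AT1G48010 flanked 4.50, 3.74 and 5.42. AT4G32800 and CCD8, a strigolactone synthesis gene, flanked 4.68, 6.08 and 3.78. XIH, a myosin gene, and the auxin biosynthesis gene YUC8 flanked 5.92, 2.79 and 5.42, of which only the middle region lay within 5 kb of both others. The remaining gap is that of LBD4, described with the listed genes. The top fold of a group was 10.2 at AT1G19835 and 9.51 at LBD4, and at most 6.08 in the other 6.

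Genes next to the regions carried assigned peaks of their own in 185 of 752 cases (24.6%, 95% Wilson interval 21.7 to 27.8%), against 14.6% of all arm protein-coding genes. Of the 444 regions 26 had an assigned peak at both neighbours, 178 at 1 neighbour and 240 at neither. No test was run on these counts, and the lengths of the gaps were not measured.

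Lists of genes for 7 processes were then searched for neighbours of the regions. Of 131 matched genes 11 stood next to a region (8.40%), against 3.13% of all arm protein-coding genes. The 131 were matched over whole chromosomes and not over the arms alone. An assigned peak was present for 49 of the 131, against 14.6% of arm protein-coding genes, and for 3 of the 11. A neighbour is no proof of a target, and no enrichment test was run. The counts were 1 of 15 suberin regulators, 2 of 24 phenylpropanoid and lignin genes, 2 of 21 flavonoid genes, 3 of 32 cutin and wax genes and 3 of 13 cambium and phellogen regulators. None of 17 suberin synthesis and export genes and none of 12 Casparian strip genes stood next to one. The 17 were those matched of 23 names, and 9 of them had an assigned peak, as did 4 of the 12. With 3.13% of arm genes next to a region, counts of 0 in lists this short do not show a lack of neighbours.

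Among the cambium and phellogen regulators, LBD4, which acts in the vascular cambium, had the strongest unassigned signal. Its gap with AT1G31310 on chromosome 1 held 3 regions, with folds of 5.27 (11208239 to 11208479), 9.51 (11208856 to 11209212) and 2.94 (11209324 to 11209519). The peak that the authors did assign to LBD4 (11211713 to 11211959) had a fold of 3.93. The middle region thus had the highest fold of the 4, and 2 listed sites, with no close match. AIL5, an AP2 factor gene also called PLT5, had a region of 5.99 on the side of VIN3 and no assigned peak. HB-8, a vascular homeodomain gene, had a region of 3.48 and an assigned peak of 4.38.

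In phenylpropanoid synthesis the region next to PAL1, a gene for the entry enzyme of the pathway, added to 2 assigned peaks. It had a fold of 4.0, a width of 523 bp and 6 sites, 3 of them close matches (chromosome 2, 15564222 to 15564744). The assigned peaks of PAL1 had folds of 5.22 with 7 sites (15560264 to 15560750) and 3.68 with 1 site (15557017 to 15557228). The region thus ranked between them. LAC17, a laccase gene of lignin formation, had no assigned peak and a region of 3.50 with 2 sites.

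The other regions near listed genes stood next to genes with no assigned peak. TT7, a flavonoid hydroxylase gene, had a region of 5.74 with 3 sites, 2 of them close matches (chromosome 5, 2558078 to 2558551). MYB111, an activator of flavonol synthesis, had the widest region of all, at 768 bp, with 7 sites and no close match (chromosome 5, 20003217 to 20003984). Among cutin and wax genes, GPAT6 had a region of 5.43 on the side of the auxin carrier gene AUX1, the alkane gene CER1 one of 5.40, and the wax regulator MYB96 one of 3.00 with no site. The suberin regulator MYB92 had a region of 4.21 with 1 site (chromosome 5, 3226689 to 3226967), whose summit lay in the non-coding RNA gene AT5G10278. All 7 of these folds, that of LAC17 included, lay between 3.00 and 5.74.

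Some regions did lie in annotated features without a protein. In all 32 of 444 summits (7.21%) stood within a pseudogene or non-coding gene of the table, against 59 of 1739 gene-assigned summits between genes (3.39%). All assigned genes were protein-coding, so this difference may follow in part from the choice and is no result about binding. A region in overlapping features is counted under each kind. Pseudogenes took 18, 7 listed as pseudogene (1.58%) and 11 as transcribed pseudogene (2.48%), against 4 (0.230%) and 7 (0.403%) of the gene-assigned summits. The highest fold in a pseudogene was 6.76, at AT2G17490 (chromosome 2, 7599455 to 7599712). Long non-coding RNA genes held 7 summits (1.58%), against 35 of the 1739 gene-assigned summits (2.01%), so their share ran the other way. Of these 7, that in AT5G02925 had the highest fold of any in these features, 9.33 with 1 close match (chromosome 5, 6321819 to 6322182). The genes named in this paragraph were chosen after their values were seen, and no test was run.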

How the data were processed

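DAP-seq of 2 MYB67 and 2 empty vector libraries gave 1 joint peak set, so peaks and not libraries were compared. The deposited peak list, gene table, FIMO site list and HOMER motif matrix were used. Fold, a ratio, and −log10 q were taken per peak as deposited by the authors. The q-value of each peak and of each site up to 0.05 was likewise deposited. Per the submitters' processing notes the tools included bedtools, HOMER, MACS3 3.0.0a7, STAR 2.7.10a, Trimmomatic 0.39 and Picard 2.27.1, with the build TAIR10. Their settings, and the use of the empty vector libraries, are not given in the sources used here.

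Sites were counted per peak, since the site list gives peak coordinates. Groups of peaks were compared by Fisher's exact test in scipy 1.17.1, with Benjamini-Hochberg adjustment over 7 tests (6 within bins of width) and a threshold of 0.05, tested on simulated data. Intervals on shares are Wilson's, those on differences Newcombe's, and both cover counting error only. Positions count from 1. Gene names and neighbours came from RefSeq (TAIR10.1), where 131 genes of 7 lists matched and 8 names did not. The regions, lists and tests were chosen with earlier results of these data known. Named regions are the 10 highest and 3 lowest folds, the 5 with most sites (ties by fold, with the last of a tie of 4 also given), the closest groups within 5 kb, and neighbours of listed genes. Alternatives were a −log10 q of at least 10, wider windows, 3 bins of width, other thresholds and repeated entries. The split by gene position and 4 bins of fold were added after seeing the data.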

Additional observations from a re-analysis of the deposited data

How the results depend on the processing

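No paired analysis was possible because no deposited column belongs to a single library, and for the same reason no replicate could be left out. Values are the share of regions with no gene minus that of gene-assigned peaks, in percentage points. The lower share with a close match kept its sign under every alternative run, but missed the threshold at a −log10 q of at least 10 (-5.89), in the middle (-10.7) and widest (-7.93) of 3 bins of width, against peaks between genes (-2.41), and in fold bins 2 to 4 of 4 (-7.94, -6.33 and -8.44). Above that −log10 q the values for fold and width turned to -2.44 and -2.35. Against peaks between genes fold, −log10 q and width gave -0.805, -0.0288 and -3.11. Against all gene-assigned peaks, width at the 75th percentile gave -1.11. In fold bin 2 the value for 2 or more sites was 1.21, and in bin 4 that for any site 1.35. Calls were gained for −log10 q (7.53) and a summit within 1 kb (6.37) in the narrowest bin of width (adjusted p = 0.0443 for each by Fisher's exact test, over 6 tests), for a summit within 2 kb (6.74), and, against peaks within genes, for any site (-2.10), 2 or more sites (-5.10), −log10 q (7.29), width (6.12) and a summit within 1 kb (3.92). In peaks with −log10 q from 10 up, 7 of the 11 listed neighbours were left, since 194 regions pass it. The share above the arm median of −log10 q has no value there, because all such peaks lie above it. Adjusted over 7 tests, with width counted, both calls in the narrowest bin and the call for close matches there (-10.3) were lost (adjusted p = 0.0517 for each, Fisher's exact test). The other 46 alternatives kept sign and side of the threshold. The causes were not tested where none is given. Sequencing depth, unknown here, limits which weak peaks could be listed.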

Other observations

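MicroRNA genes stood next to some of the regions, an observation made after the data were seen. In 12 regions the nearest annotated gene on 1 side was a microRNA gene, and 1 further summit lay within MIR863, at a fold of 4.73. Counted over both sides, 657 neighbours of the regions were protein-coding. The like count was not made for gene-assigned peaks, so whether microRNA genes are more frequent next to the regions is unknown. The highest fold, 9.92, was next to MIR866 (chromosome 5, 16158624 to 16158973), followed by 7.10 next to MIR5016 and 7.08 next to MIR169b. MIR858a, whose product targets transcripts of MYB factors of the flavonoid pathway, had a region of 4.23 with 2 sites, both at a q of up to 0.01 (chromosome 1, 26774718 to 26774947). The protein-coding gene on 1 side of that region, AT1G71000, had a stronger assigned peak, with a fold of 13.1. The other 8 were MIR156c, MIR157c, MIR167a, MIR167d, MIR319b, MIR393b, MIR394a and MIR395c, with folds from 3.07 to 5.42. The region next to MIR394a held no site.

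A repressor gene of phenylpropanoid synthesis, MYB4, also stood beside a strong region, picked out after its values were seen. The region between MYB4 and RPN10 had a fold of 10.8, the 12th highest of the 444, with 6 sites, 2 of them close matches (chromosome 4, 18055395 to 18055708). The peak assigned to MYB4 itself had a fold of 4.38 (18051934 to 18052257). That assigned to RPN10, a proteasome subunit gene, had 6.62 (18056275 to 18056709). By position the region stood nearer to the RPN10 peak than to the MYB4 peak. Other MYB genes beside a region varied. MYB7, for example, had regions of 8.26 and 4.86 and an assigned peak of 4.95. MYB3 had a region of 4.52, below its assigned peak of 6.45.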
